A study of Homo sapiens with 6 samples.

Results

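The subjects of this account are 10 long noncoding RNA (lncRNA) genes that are often studied in cancer: MALAT1, NEAT1, PVT1, TUG1, NORAD, H19, MIR31HG, MIR205HG, KCNQ1OT1 and CYTOR. They were picked by name with earlier results of these data known, although the rule that names them uses no measured value. Their Ensembl identifiers were looked up by symbol, and 10 of the 67140 gene identifiers in the deposited table are described. The samples came from KYSE150, an established line of esophageal squamous cell carcinoma (ESCC). One set of 3 libraries carried a control short hairpin (shCtrl) and the other set of 3 carried a hairpin against the lncRNA AC007128.1 (shAC007128.1), so both groups carried a hairpin and no untransduced cells were compared here. According to the study's methods, stable lines were made with lentivirus and puromycin and poly-A RNA was sequenced as paired ends. The comparison therefore asks how these RNAs differed between a line with 1 hairpin against AC007128.1 and a line with 1 control hairpin. The labels do not say that the 3 libraries of a group came from separate cultures, so p-values measure only the spread between these libraries, which may be technical, and the treatment text names shAC007128.1 for all 6 samples while titles and descriptions separate the groups.

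Long noncoding RNAs act as RNA rather than through a protein, and the 10 described here differ in where they work. MALAT1 and NEAT1 stay in the nucleus, where MALAT1 gathers in splicing-factor speckles and NEAT1 is the scaffold of paraspeckles, whereas NORAD is cytoplasmic and binds Pumilio proteins. H19 and KCNQ1OT1 are transcribed from one parental copy of an imprinted region, MIR205HG and MIR31HG are named for the microRNAs that lie within them, PVT1 neighbors the oncogene MYC, and TUG1 and CYTOR are frequently measured in tumors.

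Total counts ranged from 55764405 to 78610457 per library, at which 3 counts, the smallest level taken as detectable, equal 0.0382 to 0.0538 CPM, the unit of counts relative to a fixed library total used from here on, and this floor covers counting error only. CPM values were scaled by TMM, which removes differences in library composition, with factors from 0.967 to 1.042. Of all identifiers, 19254 passed the filter on low counts and were tested with edgeR, and a gene was called when its Benjamini-Hochberg adjusted p was at most 0.05 and its log2 fold change at least 1 in size. The target itself, AC007128.1 (ENSG00000229970, plus strand of chromosome 7), had counts of 69, 33 and 53 in shCtrl and 18, 37 and 15 in shAC007128.1 libraries. The groups overlapped and the gene was not called (log2 fold change -0.77, SE 0.51, edgeR adjusted p = 0.271), with a mean at 58.6% of control. A drop of the target was thus not detected at this depth, and the groups are named by their labels. The paper itself reports from qPCR that its hairpin lowered this RNA in ESCC cells. All 10 squamous markers examined were tested and their summed level was 1858 to 1896 CPM in shCtrl and 2660 to 3207 CPM in shAC007128.1 libraries, with TP63 not called and KRT6A, KRT14, KRT16 and SOX2 called higher and DSG3 lower. Of the defining markers of other cell types, COL1A2, COL3A1 and PDGFRA were at 0 in the shAC007128.1 libraries. The leukocyte list summed to 59.9 to 68.6 CPM in shCtrl and 14.9 to 24.1 in shAC007128.1 libraries, nearly all of it CD68 (63.8 ± 4.47 and 17.5 ± 5.27 CPM, SD, n = 3), a lysosomal gene that was the 1 called of 4 tested. The fibroblast list summed to 15.3 to 16.2 and 21.3 to 23.9 CPM, with LUM called higher and PDGFRB lower of 3 tested, and the endothelial list to 2.30 to 3.23 and 0.302 to 2.02 CPM with 0 of 2 called by edgeR and 1 lower by DESeq2 and by limma-voom. The part of these markers in the results was not tested. The libraries numbered 2 of both groups stood apart for MALAT1 and a few other genes, and results that rest on them are given with and without them.

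The 2 lncRNAs that were called are each named for a microRNA, and the sequences of those microRNAs are shown first, with 1 carried by H19, to fix what the names stand for. The mature microRNAs are from RefSeq on GRCh38.p14, written 5′ to 3′ with the seed, bases 2 to 8, in capitals. These short RNAs were not measured by the poly-A libraries, and the 4 seeds differ from one another.
hsa-miR-205-5p (chr1:209432166-209432187, plus strand): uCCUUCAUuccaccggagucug
hsa-miR-205-3p (chr1:209432203-209432223, plus strand): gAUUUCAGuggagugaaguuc
hsa-miR-31-5p (chr9:21512158-21512178, minus strand): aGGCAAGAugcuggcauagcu
hsa-miR-675-5p (from H19, chr11:1996800-1996822, minus strand): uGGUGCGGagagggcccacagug

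The start regions of the 2 called genes are shown because they differ in base composition and in the motifs they hold. Each runs from 250 bases before to 50 bases after the start in RefSeq (GRCh38.p14), 5′ to 3′ along the gene's strand, with motif matches in capitals. Both strands were searched for the TATA box, spelled TATAAA, for the CCAAT box, for the GC box, spelled GGGCGG, and for the E-box, spelled CACGTG. The searched form of an AP-1 site was TGANTCA and that of the heat shock element was GAANNTTC.
MIR205HG (chr1:209428570-209428869, plus strand): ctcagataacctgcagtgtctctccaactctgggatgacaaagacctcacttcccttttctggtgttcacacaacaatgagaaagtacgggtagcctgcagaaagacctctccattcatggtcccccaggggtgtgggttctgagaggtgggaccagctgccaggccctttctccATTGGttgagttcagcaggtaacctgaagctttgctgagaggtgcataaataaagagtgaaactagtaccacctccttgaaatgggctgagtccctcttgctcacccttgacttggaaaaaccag
MIR31HG (chr9:21559749-21560048, minus strand): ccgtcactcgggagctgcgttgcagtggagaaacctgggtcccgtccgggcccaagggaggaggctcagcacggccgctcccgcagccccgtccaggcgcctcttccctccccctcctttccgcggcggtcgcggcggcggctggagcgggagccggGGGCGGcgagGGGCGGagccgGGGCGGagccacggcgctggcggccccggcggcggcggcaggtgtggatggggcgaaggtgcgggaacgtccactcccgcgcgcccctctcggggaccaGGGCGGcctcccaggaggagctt

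In the MIR205HG window the only match was 1 CCAAT box, read on the opposite strand at position -75 from the start, and the GC content was 50.3%. The MIR31HG window held 4 GC boxes, 3 before and 1 after the start, and had a GC content of 77.7%, against a median of 58.7% over 35116 promoter windows. Among those windows 34.6% held a CCAAT box and 45% a GC box, so both kinds of match were common. The other shares were 11.5% for the TATA box, 7.71% for the AP-1 site, 7.26% for the E-box and 6.77% for the heat shock element. A match describes letters and is not a site of binding.

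MIR205HG fell and MIR31HG rose in shAC007128.1 cells, and the other 8 lncRNAs were not called. Hence 1 of 10 was called higher and 1 of 10 lower, where 5.57% of all genes tested were called higher and 10.1% lower, or 15.7% in either direction. Among the 3705 annotated lncRNA genes tested, 3.29% were called higher and 15.1% lower. With 10 genes, 1 call in each direction is close to these shares and is no result about the set. Their median log2 fold change was 0.02, compared with -0.02 over all genes and -0.35 over lncRNA genes, and 5 values were negative and 5 positive. An adjusted p of at most 0.05, without the limit on fold change, was reached by 3 of 10 members and by 40.8% of all genes. The 3 libraries of one group all lay outside the range of the other for 3 of 10 members and for 55.2% of all genes. In poly-A RNA pooled from many cells, fewer cells with an RNA and less RNA per cell cannot be told apart.

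**Figure D1:**
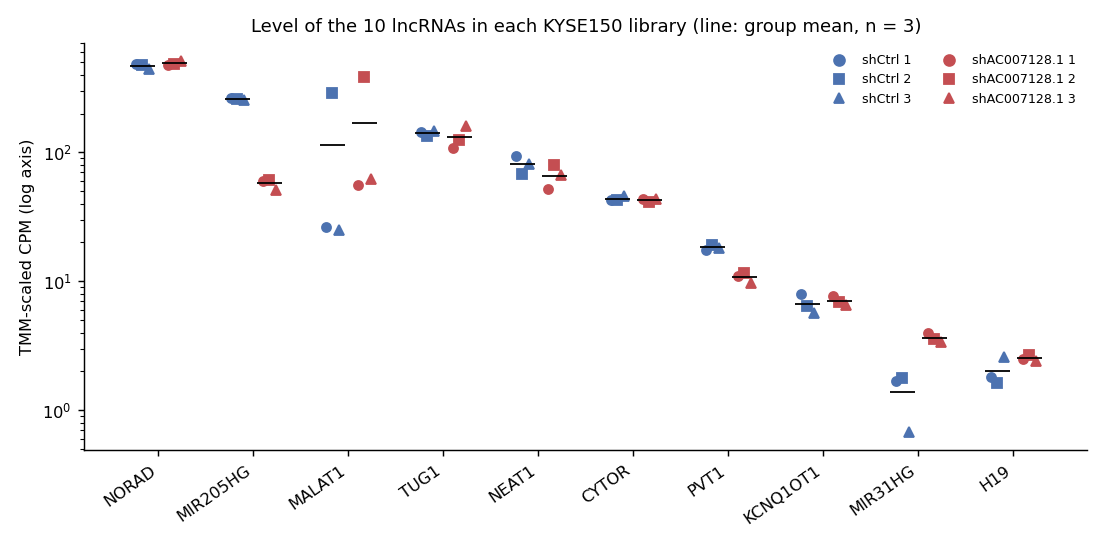
TMM-scaled CPM of each lncRNA (log axis) in the 6 libraries, with points shaped by library number and lines at the mean of 3. MIR205HG, PVT1 and MIR31HG are the 3 genes whose groups do not overlap, and the libraries numbered 2 stand far above the others for MALAT1.

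MIR205HG (ENSG00000230937, chr1:209428817-209432848 on the plus strand of hg38) is the host transcript of miR-205, a microRNA known for its high level in squamous epithelium. Its level was 263, 259.5 and 256 CPM in shCtrl libraries 1, 2 and 3, and 60.4, 61.1 and 51.1 CPM in shAC007128.1 libraries 1, 2 and 3. All 3 shCtrl libraries lay above 4 times the highest value of the other group, and the libraries within each group were close to each other. The means were 259.6 ± 3.52 and 57.5 ± 5.55 CPM (SD, n = 3), 22.2% of control, with a log2 fold change of -2.17 (SE 0.09, edgeR adjusted p = 1.6e-05). Of the 3705 lncRNA genes tested, none had a smaller adjusted p, and the gene stayed lower under all 16 settings tried, from -2.25 to -2.10 on the log2 scale. The microRNA gene MIR205 (chr1:209432133-209432242), which shares 39 exonic bases with the host, has a row of its own that was looked up after the values of the host were seen. Its counts were 213, 222 and 175 in shCtrl and 15, 20 and 17 in shAC007128.1 libraries. These separate groups gave 2.75 ± 0.166 and 0.308 ± 0.0504 CPM (SD, n = 3), a log2 fold change of -3.15 (SE 0.24, edgeR adjusted p = 9.97e-05). Fragments of the mature microRNA are not captured by these libraries, so this row counts longer RNA over the hairpin and is not a level of miR-205.

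MIR31HG (ENSG00000171889, chr9:21380073-21559891, minus strand) spans the microRNA gene MIR31, which lies outside its exons, and is transcribed in many epithelial tumors. It had 1.69, 1.78 and 0.678 CPM in the shCtrl libraries (counts of 124, 143 and 46) and 3.97, 3.57 and 3.35 CPM in the shAC007128.1 libraries (counts of 223, 196 and 195). The groups did not overlap, and shCtrl library 3 was the lowest of the 6. The mean went from 1.38 ± 0.612 to 3.63 ± 0.311 CPM (SD, n = 3), 262% of control, and the gene was called higher (log2 fold change 1.39, SE 0.36, edgeR adjusted p = 0.0183). Without both libraries numbered 2, a setting added after the values were seen, the log2 fold change was 1.62 but the adjusted p in edgeR was 0.0663 and the call was lost. Of its exonic bases, 2065 of 16590 (12.4%) also belong to other genes on the opposite strand, among them the interferon gene IFNA1. IFNA1 had 5 counts in shCtrl library 1 and 0 in the other 5, and the 3 interferon pseudogenes that share bases with MIR31HG had at most 4 counts in any library. Within each library, the log2 ratio of MIR205HG to MIR31HG counts was 7.28, 7.19 and 8.56 in shCtrl and 3.93, 4.10 and 3.93 in shAC007128.1. The ratio needs no scaling between libraries and the groups were separate, with a difference of -3.69. A two-sided exact permutation test gave p = 0.1, the smallest that 3 against 3 allows, and 0.4 after adjustment over the 4 ratios examined.

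**Figure D2:**
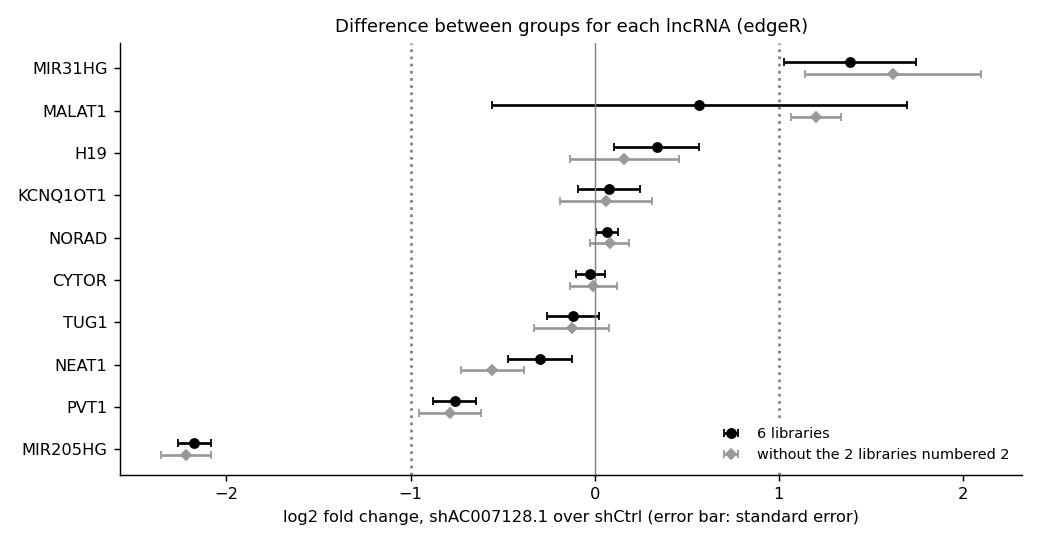
Log2 fold change of shAC007128.1 over shCtrl for each lncRNA in edgeR, with standard errors, from all 6 libraries (black) and without the 2 libraries numbered 2 (gray). Dotted lines mark the limits of 1 in size, which MIR205HG passes at -2.17 and MIR31HG at 1.39 in black, while MALAT1 moves from 0.57 to 1.20 and its error shrinks.

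Of the 14 tested genes of microRNA processing, 1 was called higher, 0 were called lower and their median log2 fold change was 0.39. An unadjusted p under 0.05 in edgeR was reached by 12 of the 14. Among all genes tested, 5.57% were called higher and 10.1% lower, and 40.8% had an edgeR adjusted p of at most 0.05. The called gene was TENT4B (1.51), a poly-A polymerase, and without both libraries numbered 2 none was called. The 3 with the smallest p were AGO2 (0.93), which holds the mature microRNA, DROSHA (0.83), which cuts hairpins out of host transcripts, and DICER1 (0.76), which trims them. These 3 had edgeR adjusted p-values of 0.000157, 0.000158 and 0.000897 and did not reach the limit on fold change.

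PVT1 (ENSG00000249859) lies on the plus strand of chromosome 8 and starts 51575 bases past MYC, whose protein its RNA has been reported to stabilize. The level was 17.5, 19.1 and 18.2 CPM in shCtrl and 10.96, 11.7 and 9.74 CPM in shAC007128.1 libraries. Every shAC007128.1 library lay below every shCtrl library. The means were 18.3 ± 0.829 and 10.8 ± 0.969 CPM (SD, n = 3), 59.0% of control, with a log2 fold change of -0.76 (SE 0.12, edgeR adjusted p = 0.00197), so PVT1 passed the limit on p but not that on fold change. MYC was the only protein-coding gene within 250 kb, with 10.0 ± 0.916 and 12.05 ± 5.73 CPM (SD, n = 3). MYC was not called (log2 fold change 0.27, SE 0.34, edgeR adjusted p = 0.571), and its spread in shAC007128.1 libraries was wide.

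MALAT1 (ENSG00000251562, chr11:65497640-65508073, plus strand) is a nuclear RNA whose main 3′ end is cut by RNase P and closed by a triple helix rather than by a poly-A tail. Its counts were 1911, 23240 and 1686 in shCtrl and 3141, 21258 and 3578 in shAC007128.1 libraries. The library numbered 2 stood apart in both groups, at 11.3 times the mean of its 2 group members in shCtrl and 6.59 times in shAC007128.1. On the CPM scale the level was 26.1, 289 and 24.9 in shCtrl and 55.9, 387 and 61.6 in shAC007128.1, so the groups overlapped through these libraries. The means of 113 ± 152 and 168 ± 189.6 CPM (SD, n = 3) gave a log2 fold change of 0.57 (SE 1.13, edgeR adjusted p = 0.721). Without both libraries numbered 2 it was 1.20 (SE 0.14, edgeR adjusted p = 0.00782) and MALAT1 was called higher, in a fit where 12.3% of 19555 genes were called. Leaving out only shCtrl library 2 gave 2.72 and leaving out only shAC007128.1 library 2 gave -0.94. In these fits 1 group keeps its high library and the other does not, so their sign cannot decide the direction. With a block on the replicate number the value was 0.94 (SE 0.18, edgeR adjusted p = 0.0139), short of the limit on fold change. Of its 10434 exonic bases, 8121 are shared with the antisense gene TALAM1, which is not among the identifiers of the table.

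The libraries numbered 2 stood apart in the same way for few other genes. Of 13114 genes with a mean count of at least 100, only MALAT1, MXD1 and ENSG00000285283 were at least 2 times higher in library 2 than in both others in each group, and MALAT1 and MXD1 were so at 4 times. A further 5 genes, among them GRB2, BCL2L2, PALM2AKAP2 and ENSG00000257921, were at least 2 times lower in library 2 in the same way. MXD1, which encodes a MAX partner, had counts of 1346, 6183 and 958 in shCtrl and 524, 2622 and 457 in shAC007128.1. GRB2, which encodes an adaptor of growth factor receptors, had counts of 12517, 4924 and 10214 in shCtrl and 9516, 3265 and 9490 in shAC007128.1. These genes were chosen after their values were seen, and the cause of the pattern was not tested.

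**Figure D3:**
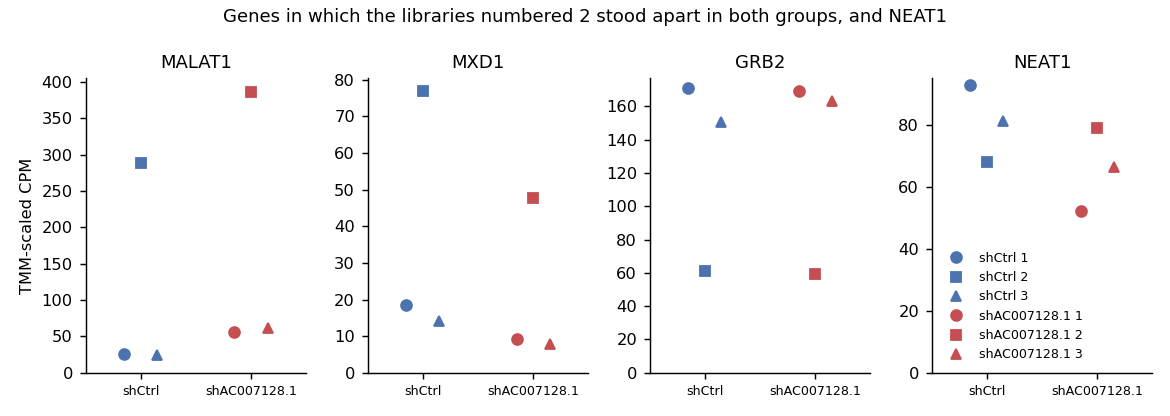
TMM-scaled CPM of MALAT1, MXD1, GRB2 and NEAT1 in the 6 libraries (linear axes from 0), each point 1 library shaped by its number. Squares, the libraries numbered 2, lie far above the others for MALAT1 and MXD1 and far below for GRB2, whereas NEAT1 has its squares at 68.2 and 79.1 CPM among the others.

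NEAT1 (ENSG00000245532, chr11:65422774-65445540, plus strand) lies upstream of MALAT1 on the same chromosome arm, and its long form, which builds paraspeckles, also lacks a poly-A tail. It had 93.0, 68.2 and 81.2 CPM in shCtrl and 52.1, 79.1 and 66.3 CPM in shAC007128.1 libraries. The groups overlapped, with library 2 the lowest of shCtrl and the highest of shAC007128.1. The means of 80.8 ± 12.4 and 65.9 ± 13.5 CPM (SD, n = 3) differed by -0.30 on the log2 scale (SE 0.17, edgeR adjusted p = 0.218). Without both libraries numbered 2 the value was -0.56 (edgeR adjusted p = 0.0721). The log2 ratio of NEAT1 to MALAT1 counts was 1.83, -2.08 and 1.71 in shCtrl and -0.10, -2.29 and 0.11 in shAC007128.1. MALAT1 thus exceeded NEAT1 in both libraries numbered 2, and the groups overlapped through these libraries (two-sided exact permutation p = 0.5). The difference in this log2 ratio was -1.25 with them and -1.77 without both, where the groups did not overlap. The longest run of A was 22 bases in the NEAT1 transcript and 13 in that of MALAT1, and the part of poly-A capture in these levels was not tested.

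The genes of the proteins that share compartments with these nuclear RNAs are given beside the 15.7% of all genes called in either direction. An adjusted p of at most 0.05 in edgeR was reached by 40.8% of all genes, so an unadjusted p under 0.05 was common. Of 22 paraspeckle proteins tested, 1 was called higher and 0 lower and 16 had an unadjusted p under 0.05, with a median log2 fold change of 0.36. The called gene was TARDBP (1.12, SE 0.22, edgeR adjusted p = 0.00652), which encodes an RNA-binding protein that also regulates NEAT1 processing. SFPQ, a core protein needed to build paraspeckles, had 497 ± 7.28 CPM in shCtrl and 317 ± 17.5 CPM in shAC007128.1 (SD, n = 3) and a log2 fold change of -0.65, short of the limit. UBAP2L (0.96) and HNRNPK (0.59) were the other two with the smallest p. Of 21 nuclear speckle proteins tested none was called in either direction by edgeR at these limits, and none by DESeq2 or limma-voom, although 11 had an unadjusted p under 0.05, with a median log2 fold change of 0.30. The 3 with the smallest p were SON (0.52), a scaffold of speckles, SRRM1 (0.73) and PNN (0.40). Of 35 tested genes of 3′ end processing and nuclear RNA decay, 1 was called higher and 0 lower, with 19 at an unadjusted p under 0.05 and a median of 0.23. POP1 (1.42), a subunit of RNase P, was that gene, and EXOSC10 (0.92) and EXOSC9 (0.86) of the exosome were below the limit.

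NORAD (ENSG00000260032, chr20:36045618-36051018, minus strand) is an unspliced cytoplasmic RNA that holds Pumilio proteins on repeated short sites. The Pumilio motif TGTANATA occurred 15 times on the sense strand of its 5401 bases, at positions 819 to 4657. Of 5070 transcripts from 0.8 to 1.25 times as long, 3 (0.0592%) held as many. The first 3 sites are shown because they carry both common forms of the motif, in hg38 and 5′ to 3′ along the RNA, written as DNA with the motif in capitals.
Site 1 (chr20:36050185-36050208): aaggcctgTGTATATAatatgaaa
Site 2 (chr20:36049806-36049829): cactactgTGTATATAgttgacaa
Site 3 (chr20:36049705-36049728): tcacatttTGTAAATAcctttttg

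NORAD had the highest mean CPM over the 6 libraries of all 3705 lncRNA genes tested, and ranked 2 within each group. It measured 483, 473 and 446 CPM in shCtrl and 474, 486 and 509 CPM in shAC007128.1 libraries. The groups overlapped, and the means of 467 ± 19.1 and 489.6 ± 17.9 CPM (SD, n = 3) gave a log2 fold change of 0.07 (SE 0.06, edgeR adjusted p = 0.423). A change was not called, which does not show that the levels were equal. Of the 11 tested genes for Pumilio and other NORAD partners, 0 were called in either direction by edgeR, DESeq2 or limma-voom, with 7 at an unadjusted p under 0.05, and their median log2 fold change was 0.26. In edgeR, 15.7% of all genes were called and 40.8% had an adjusted p of at most 0.05. ALYREF (0.94), an RNA export factor, and NANOS1 (-0.69), a Pumilio cofactor, had the smallest p.

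H19 (ENSG00000130600, chr11:1995166-2004552, minus strand) is a maternally expressed imprinted RNA that also carries miR-675. Its counts of 132, 130 and 174 in shCtrl and 139, 147 and 140 in shAC007128.1 correspond to 1.80, 1.62 and 2.56 CPM against 2.47, 2.68 and 2.41 CPM. The groups overlapped because shCtrl library 3 lay within the other group's range. The means were 1.995 ± 0.502 and 2.52 ± 0.140 CPM (SD, n = 3), with a log2 fold change of 0.34 (SE 0.23, edgeR adjusted p = 0.285). KCNQ1OT1 (ENSG00000269821, chr11:2597308-2700003, minus strand), which silences its imprinted neighbors on the paternal copy, had 7.90, 6.38 and 5.69 CPM in shCtrl and 7.61, 6.90 and 6.57 CPM in shAC007128.1. All 3 shAC007128.1 values lay within the shCtrl range, and the means of 6.66 ± 1.13 and 7.03 ± 0.533 CPM (SD, n = 3) gave a log2 fold change of 0.08 (SE 0.17, edgeR adjusted p = 0.744). The log2 ratio of H19 to KCNQ1OT1 counts ran from -2.13 to -1.15 in shCtrl and from -1.62 to -1.37 in shAC007128.1 (two-sided exact permutation p = 0.4). KCNQ1, in which KCNQ1OT1 is antisense, had 4 counts in 1 shCtrl library and 0 in the others.

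In the imprinted 11p15.5 region that holds both RNAs, 8 of 16 listed genes were tested, H19 and KCNQ1OT1 among them. Of these 8, 2 were called higher and 0 lower, with a median log2 fold change of 0.33. The shares over all genes tested, for this list and the next, were 5.57% higher and 10.1% lower. The called genes were NAP1L4 (1.06, SE 0.09, edgeR adjusted p = 0.000154), a histone chaperone gene, and MRPL23 (1.04, SE 0.16, edgeR adjusted p = 0.00231), a mitochondrial ribosome gene 10644 bases from H19. SLC22A18 (-0.81), a transporter gene, and PHLDA2 (0.56), a growth-restraining placental gene, did not reach the limit. IGF2, the growth factor gene coupled to H19, had at most 10 counts in any library, and the cell cycle inhibitor gene CDKN1C had 0 in all 6. Of the 19 tested partners in Polycomb and H3K9 methylation, the silencing machinery that several lncRNAs bind, 2 were called higher and 1 lower, with a median of 0.07. EZH2 (1.35), the H3K27 methyltransferase, and RBBP4 (1.42), a histone-binding subunit of Polycomb complexes, were higher, CBX7 (-1.38), which reads H3K27 methylation, was lower, and SUV39H1 (0.95) was below the limit.

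TUG1 (ENSG00000253352, chr22:30969245-30979395, plus strand) is an RNA found in nucleus and cytoplasm, typed as protein-coding in GENCODE v44. It had 145, 133 and 146 CPM in shCtrl and 107, 125 and 159 CPM in shAC007128.1 libraries. The shAC007128.1 values spread over the whole shCtrl range and beyond it at both ends, and the means of 141 ± 7.01 and 130.3 ± 26.5 CPM (SD, n = 3) gave a log2 fold change of -0.12 (SE 0.14, edgeR adjusted p = 0.553). CYTOR (ENSG00000222041, chr2:87454781-87636740, plus strand) is a cytoplasmic RNA linked to cytoskeletal and growth signaling. Its level of 42.4, 42.9 and 45.6 CPM in shCtrl and 43.8, 41.2 and 43.7 CPM in shAC007128.1 gave means of 43.6 ± 1.72 and 42.9 ± 1.48 CPM (SD, n = 3). These were the closest of the 10 between groups, with a log2 fold change of -0.02 (SE 0.08, edgeR adjusted p = 0.831). The ratio of CYTOR to MIR4435-2HG, a near-identical lncRNA gene on the same chromosome whose reads may be split with it, was -0.02, -0.77 and 0.08 in shCtrl on the log2 scale. In shAC007128.1 it was -0.05, -0.72 and -0.49, so the groups overlapped (two-sided exact permutation p = 0.7) and both libraries numbered 2 lay below their group members. A division of reads between the 2 copies makes the level of CYTOR uncertain.

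Between genes, levels were compared as CPM per kb of annotated exon. NORAD led in both groups at 86.5 ± 3.54 in shCtrl and 90.6 ± 3.32 CPM per kb in shAC007128.1 (SD, n = 3). MIR205HG was second at 73.5 ± 0.997 in shCtrl, below NORAD in all libraries, and at 16.3 ± 1.57 CPM per kb in shAC007128.1. There it no longer stood apart from TUG1 (12.8 ± 2.61 CPM per kb), since their libraries overlapped. MALAT1 spanned 2.38 to 27.7 CPM per kb in shCtrl, overlapping TUG1, NEAT1 and CYTOR, and 5.36 to 37.1 CPM per kb in shAC007128.1, overlapping MIR205HG and TUG1. Below them came NEAT1 (3.55 and 2.89 CPM per kb in the 2 groups), CYTOR (2.45 and 2.41) and PVT1 (0.718 and 0.424), with NEAT1 and CYTOR overlapping in shAC007128.1 only. In shCtrl, the PVT1 and H19 ranges overlapped, with H19 at 0.576 CPM per kb, and in shAC007128.1 H19 at 0.728 lay above PVT1 in all libraries. MIR31HG (0.0834 and 0.219 CPM per kb) overlapped KCNQ1OT1 (0.0719 and 0.0759 CPM per kb) in shCtrl but not in shAC007128.1. With the longest annotated transcript as the length, PVT1 rose to 7.46 CPM per kb in shCtrl, above CYTOR at 5.81 and NEAT1, and in shAC007128.1 TUG1 came before MIR205HG. Both lengths used for NEAT1, 22767 and 22743 bases, include its long form, which lacks a poly-A tail. In poly-A libraries its level per kb may therefore be too low, which neither length can show.

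The word abundant fits these genes unevenly. By mean CPM over the 6 libraries, NORAD ranked 1 against the 3705 lncRNA genes tested, MIR205HG 6, MALAT1 8, TUG1 9, NEAT1 20, CYTOR 32 and PVT1 129. The rank of MALAT1 rested on the libraries numbered 2, without which its mean went from 141 to 42.1 CPM and its rank to 34, while NORAD stayed at 1 and CYTOR was at 29. Within groups, MIR205HG ranked 4 in shCtrl and 21 in shAC007128.1, and MIR31HG 1204 and 479. Over the 6 libraries KCNQ1OT1 ranked 300, MIR31HG 715 and H19 768, so 79.3% of the lncRNA genes tested lay below H19. Together the 10 RNAs took 0.109%, 0.132% and 0.107% of all counts in the shCtrl libraries and 0.0794%, 0.119% and 0.0882% in the shAC007128.1 libraries. The groups overlapped through the libraries numbered 2 (two-sided exact permutation p = 0.3). Without MALAT1 the share was 0.105 ± 0.0019% in shCtrl and 0.0789 ± 0.00435% in shAC007128.1 (SD, n = 3), separate groups with the smallest exact permutation p of 0.1, and NORAD and MIR205HG were its largest parts in shCtrl. From shCtrl to shAC007128.1, mean MIR205HG went from 259.6 to 57.5 CPM and mean NORAD from 467 to 489.6 CPM. The lower share is therefore no result about the set as a whole.

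**Figure D4:**
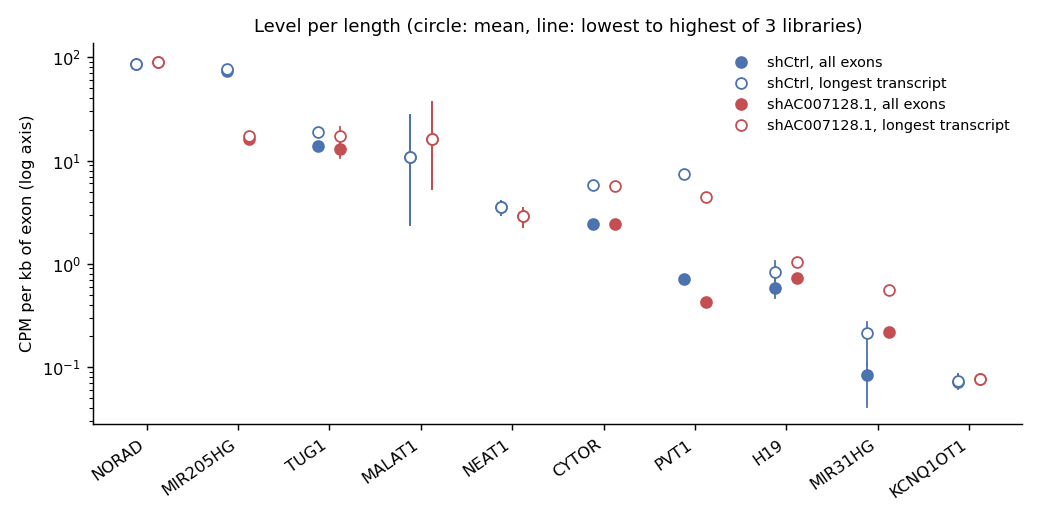
Level per length of each lncRNA (CPM per kb, log axis), with filled circles for the union of exons, open circles for the longest transcript and lines from the lowest to the highest of 3 libraries. NORAD is highest on both lengths, MIR205HG drops from 73.5 to 16.3 CPM per kb, and PVT1 shifts most with the length used.

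Protein-coding neighbors within 250 kb were compared with each lncRNA. Over all genes tested, edgeR called 5.57% higher and 10.1% lower, and 40.8% had an adjusted p of at most 0.05. For MIR205HG, 2 of 3 neighbors were tested and 0 called by edgeR, DESeq2 or limma-voom, with 1 at an unadjusted p under 0.05. That gene was LAMB3, a laminin-332 chain of the epithelial basement membrane, with 879 ± 70.2 CPM in shCtrl and 568 ± 57.2 CPM in shAC007128.1 (SD, n = 3), a log2 fold change of -0.63 (SE 0.09, edgeR adjusted p = 0.00175). For MIR31HG 3 of 17 neighbors were tested and for NORAD 5 of 5, and edgeR, DESeq2 and limma-voom called 0 of either, with 1 and 3 at an unadjusted p under 0.05. POLA2 (1.58), a subunit of DNA polymerase alpha, was the 1 called of 19 tested neighbors of MALAT1 and also of 18 of NEAT1. Around TUG1, 1 of 7 was called higher and 1 lower, namely SMTN (1.62), a smooth muscle cytoskeletal gene, and INPP5J (-2.65), a phosphoinositide phosphatase gene. Around H19, 4 of 7 were called higher and 1 lower. These were CTSD (1.21), the lysosomal protease cathepsin D, MRPL23, SYT8, LSP1 and, lower, IFITM10 (-2.77), of which SYT8, LSP1 and IFITM10 had mean levels of at most 1.13 CPM in both groups. Around KCNQ1OT1 NAP1L4 was the 1 called of 5, and the 2 neighbors of CYTOR were not tested.

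Likeness of pattern was measured as the root mean square difference of log2 CPM, each gene centered on its mean over the 6 samples, among lncRNA genes whose mean log2 CPM reached 1. The gene most like MIR205HG was KDM7A-DT (0.037 log2 units), with counts of 544, 554 and 484 in shCtrl and 96, 94 and 80 in shAC007128.1. The next was ENSG00000260267 (0.0663). For PVT1 they were RNASEH1-DT (0.0485) and ENSG00000272173 (0.065), and for MIR31HG LINC00342 (0.292) and LINC02582 (0.341). No lncRNA came close to MALAT1, for which the smallest difference of 792 candidates was 1.12 log2 units, from ENSG00000258168. The pairs for the others were ZBED5-AS1 (0.117) and RNF213-AS1 (0.125) for NEAT1, ALOX12-AS1 (0.0571) and ALMS1-IT1 (0.0764) for NORAD, and ENSG00000241860 (0.0602) and RPL30-AS1 (0.0667) for CYTOR. For TUG1 they were ENSG00000280441 (0.064) and ENSG00000278996 (0.073), for H19 ENSG00000286207 (0.125) and ITGA9-AS1 (0.128), and for KCNQ1OT1 ENSG00000184441 (0.0774) and ENSG00000264577 (0.0945).

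A list of 61 other lncRNAs linked to cancer placed the 10 beside their kind. From this list 45 entries were tested, with DUXAP8 present under more than 1 identifier. Of these entries, 1 was called higher and 10 lower, where 3.29% of all lncRNA genes tested were called higher and 15.1% lower. Their median log2 fold change was -0.32, close to that of all lncRNA genes. MIR22HG, like MIR205HG the host of a microRNA, was lower (42.5 ± 1.40 and 9.39 ± 0.919 CPM, SD, n = 3, log2 fold change -2.18, SE 0.11, edgeR adjusted p = 2.92e-05). NBR2 (-1.34), a neighbor of BRCA1, and LINC00662 (-1.42) were next by p, and the others called lower were HOTAIRM1, DUXAP8, HULC, PCAT7, MIR193BHG, LUCAT1 and EPB41L4A-AS1. Another DUXAP8 entry, typed as a pseudogene, was not called (log2 fold change -1.35, edgeR adjusted p = 0.269). The gene called higher was DANCR (1.39, SE 0.37, edgeR adjusted p = 0.0201), which carries snoRNAs in its introns. Without both libraries numbered 2, 0 of 47 were called higher and 11 lower.

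Genes of other groups were also called between these libraries, where 5.57% of all genes tested were called higher and 10.1% lower, and their part in the levels above was not tested. Of 22 S phase and mitosis genes, 16 were called higher and 0 lower (median log2 fold change 1.21), led by MCM6 (1.95), PCNA (1.64) and TYMS (1.83). Of 15 cytosolic heat shock genes, 12 were called higher and 0 lower (median 1.67), led by HSPA8 (2.92), HSP90AA1 (2.49) and DNAJA1 (2.19). Of 20 p53 target genes, 0 were called higher and 4 lower (median -0.12), with SESN2 (-2.17), CDKN1A (-1.72) and GADD45A (-1.76) first by p.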

How the data were processed

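RNA from 3 shCtrl and 3 shAC007128.1 samples of KYSE150 was measured as poly-A RNA sequencing, and groups follow the titles and descriptions in the labels. The authors filtered reads, mapped them to hg38 with TopHat and derived FPKM with Cufflinks, and the submitters' notes list TopHat2 2.0.6 and CASAVA 1.8. The table deposited by the authors gives 1 estimated count per gene and sample, as a whole number without normalization. The counting program, annotation release and use of strand are not given in the sources used here, so reads of overlapping genes cannot be told apart. Low estimated counts pile up at multiples of 4, and dividing by 4 was tried.

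Symbols, positions and lengths come from GENCODE v44 on hg38, which held 60357 of 67140 identifiers (89.9%), and promoter and microRNA sequences from RefSeq, with no promoter entry matched for NEAT1, PVT1 and KCNQ1OT1. A filter on low counts (filterByExpr) left out 47886 identifiers, and after TMM scaling all remaining genes were tested with edgeR 4.0.16 (glmQLFit, glmQLFTest) in R 4.3.3, with Benjamini-Hochberg adjustment over all genes tested. Standard errors are the log2 fold change over the root of F. CPM for likeness used a prior count of 2. Depth was 55764405 to 78610457 counts per library. Single values used two-sided exact permutation tests. The steps were tested on simulated counts. Alternatives were DESeq2 1.42.0, limma-voom (limma 3.58.1), scaling by DESeq2's size factors or by library size alone, dropping the low-count filter or requiring 10 counts in each of the libraries, a replicate block, no limit on fold change, mitochondrial genes left out, another length and each replicate left out. Counts divided by 4, the 20 genes with most counts dropped and both libraries numbered 2 dropped were added after seeing the data.

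The members and gene lists were chosen with earlier results of these data known. Named are all members, the 3 genes of smallest p in each list, called genes within 250 kb of a member, and for each member the 2 lncRNA genes of most similar pattern. Other list members named were called, or are defining markers. Genes that stand apart in the libraries numbered 2, MIR205 and other genes overlapping a member were chosen after their values were seen. Some genes that this rule names are not reported here.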

Additional observations from a re-analysis of the deposited data

How the results depend on the processing

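With no limit on fold change, 4041 genes were called higher and 3820 lower, and PVT1 joined MIR205HG so that 2 of the 10 lncRNAs were lower. Under the other alternatives 899 to 1112 genes were called higher and 1474 to 2146 lower, and 1 lncRNA in each direction. MIR205HG stayed lower and PVT1, NEAT1 and H19 kept their direction in all 16 settings. MIR31HG was called higher in 15 of 16, except without both libraries numbered 2, where it was 1.62 with an adjusted p of 0.0663 in edgeR and MALAT1 was called instead at 1.20. Leaving out each replicate gave MALAT1 values from -0.94 to 2.72, TUG1 from -0.294 to 0.00722, KCNQ1OT1 from -0.0269 to 0.217 and CYTOR from -0.0479 to 0.00706, with a sign change for MALAT1 without shAC007128.1 replicate 2, for TUG1 without shAC007128.1 replicate 1, for KCNQ1OT1 and CYTOR without shCtrl replicate 3, and for CYTOR without shAC007128.1 replicate 2. NORAD was -0.00599 with library size only. None of these sign changes concerned a called value, and their cause was not tested.

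Over 19254 genes, same-numbered libraries deviated from their group means with correlations of only 0.031, -0.025 and -0.03. Such correlations cannot exclude a pattern shared by few genes, as MALAT1, MXD1 and GRB2 showed in the libraries numbered 2. Blocking on the replicate number gave 977 genes higher and 1692 lower, MIR205HG (-2.18) and MIR31HG (1.49) kept their calls, and MALAT1 was 0.94 (edgeR adjusted p = 0.0139), short of the fold limit. Depth limits H19 and MIR31HG most, with 46 to 223 counts per library.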
